A study of Drosophila melanogaster with 8 samples.

Results

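The ribosome is built from a large and a small subunit, each made of ribosomal RNA and one copy of most of its proteins, which are encoded by the RpL and RpS genes. The RpLP genes encode the stalk of the large subunit, where translation factors bind. In Drosophila most of these genes are single and loss of one copy delays growth (the Minute phenotype), but some families have a second gene, usually of low expression and often noted in the germline. The genes described here are the 91 genes of 14865 in the count table whose symbol begins with RpL, RpS or RpLP and a number. All 91 passed the filter on low counts, which left 13506 genes for the test. Within a family, the copy with the highest level per kilobase of exon in the controls is called the abundant copy and any other copy a minor copy. This gave 66 single-copy genes and 12 families, with 12 abundant and 13 minor copies.

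Whole adult Drosophila melanogaster were compared, 3 libraries of DHR39 mutants with 5 libraries of control flies, all as adults aged to day 8 and fed 8% yeast with 9% sugar. DHR39 (gene symbol Hr39) is a nuclear receptor, and the series asks about its part in male fertility and accessory gland expression. The deposited sample sheet names the mutant allele DHR393.48 and the control line w1118, the labels give neither the lesion nor the sex, and the control libraries were re-used from another series. Whether the libraries are separate cultures is not stated, and the p-values cover only the spread among these libraries, part of which may be technical.

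The libraries held between 16072497 and 19935574 counts. Hr39 RNA was lower in the mutants but not absent, at 27.0 ± 2.89 CPM (counts scaled to library size; SD, n = 3) against 36.2 ± 2.38 (SD, n = 5), a log2 fold change of -0.42 ± 0.10 (SE; edgeR quasi-likelihood adjusted p = 0.0119, 0.0593 when only library totals set the scale, 0.0515 without DHR39 replicate 1 and 0.0508 without DHR39 replicate 2). Of 22 male germline markers 0 passed the test in either direction (edgeR, with 1 at an unadjusted p under 0.05, which was sa, called lower by DESeq2 and with replicate names as a block). Their summed level ran from 5702 to 7725 CPM in the controls and from 6007 to 6837 CPM in DHR39. Of 16 markers of ovary and female fat body 10 were in the table and 6 were tested, and 0 passed (edgeR, with 0 at an unadjusted p under 0.05), with summed levels of 47.1 to 53.1 CPM in the controls and 48.4 to 49.2 CPM in DHR39. Of 6 markers of the germline of both sexes 0 passed in the main comparison, with 2 at an unadjusted p under 0.05, and 1, tud, was called lower with the block. Their summed level ran from 526 to 634 CPM in the controls and from 369 to 536 CPM in DHR39. Most of that sum was tud alone, at 552 ± 49.2 CPM in the controls and 437 ± 89.6 CPM in DHR39 (SD). The other markers had control means of 1.79 to 16.3 CPM, and 2 of them, nos and AGO3, had log2 fold changes above 0. The part of this sum in the levels of ribosomal protein genes was not tested. In bulk RNA of whole flies, fewer cells of a type and less RNA per cell cannot be told apart.

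Ribosomal protein genes shifted together from library to library. Levels here are CPM scaled by trimmed means between libraries (TMM). Relative to the control mean, the median of the 78 genes without minor copies lay at 0.12 on the log2 scale in control replicate 2, where 77 of 78 genes were above the control mean. It lay between -0.044 and 0.00060 in the other 4 controls. In DHR39 the medians were 0.028, -0.096 and 0.0041 for replicates 1, 2 and 3, and in replicate 2 only 5 of 78 genes were above the control mean. The spread among libraries of a group was thus wider than the difference between the group means of these medians, which were -0.00075 ± 0.070 in controls and -0.021 ± 0.066 in DHR39 (SD). The median log2 fold change of the 91 genes was 0.0093 without control replicate 2 and 0.022 without DHR39 replicate 2, against -0.017 with all libraries.

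**Figure D1:**
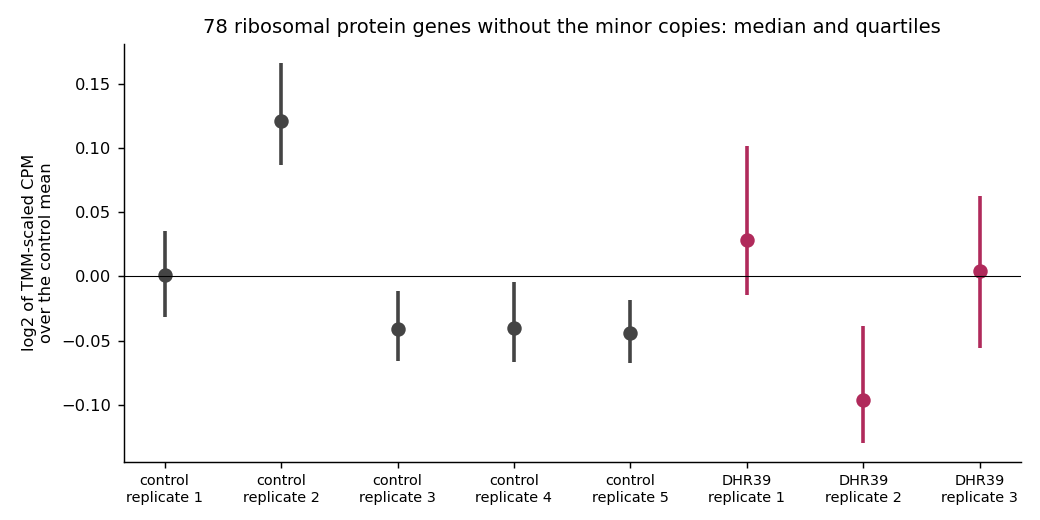
Median (point) and quartiles (bar) over 78 ribosomal protein genes, without minor copies, of the log2 ratio of each library's TMM-scaled CPM to the control mean, for the 5 control libraries in grey and the 3 DHR39 libraries in red. Control replicate 2, at 0.12, and DHR39 replicate 2, at -0.096, lie farthest from 0, and the groups overlap.

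Ribosomal protein RNA was close to level between the genotypes. Of the 91 genes 2 passed the test, 1 higher and 1 lower in DHR39, which is 2.20% of them, whereas 17.3% of all tested genes passed, 6.58% higher and 10.7% lower (edgeR quasi-likelihood, Benjamini-Hochberg adjusted p under 0.05 over all tested genes). The gene that rose was RpL24-like, which counts as a minor copy here because families were set by name. The gene that fell was RpL5, a single-copy gene. The median log2 fold change was -0.017 over the 91 genes and -0.0044 over all tested genes. For the 78 genes other than the minor copies the log2 fold changes ran from -0.25 to 0.17, and the 95% interval of each of the 78 lay within 0.5 of 0. Of the 13 minor copies 9 had such an interval, and the median SE of the 13 was 0.13, against 0.083 for the 78. RpL24-like was outside through its high estimate, with an interval of 0.28 to 0.77. Over all tested genes the quartiles of the log2 fold change were -0.20 and 0.16.

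**Figure D2:**
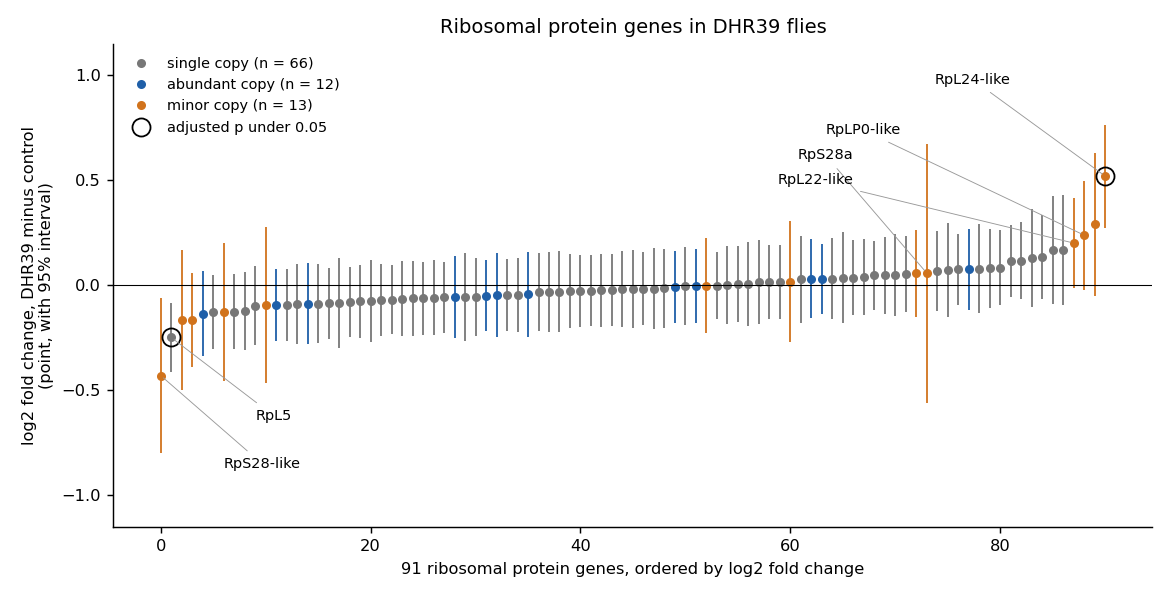
Log2 fold change of each of the 91 ribosomal protein genes (DHR39 minus control, vertical axis) with its 95% interval, ordered from lowest to highest, with single-copy genes in grey, abundant copies in blue and minor copies in orange. The 2 circled genes, RpL5 and RpL24-like, passed the test, and the ends of the order are held mostly by minor copies.

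The protein classes of the ribosome gave like values. Without minor copies, 44 genes of the large subunit had a median log2 fold change of -0.015, 31 genes of the small subunit -0.027 and the 3 stalk genes -0.049. Among large subunit genes, 1 of 44 passed the test, and among those of the small subunit and the stalk, 0 passed. The stalk genes RpLP0, RpLP1 and RpLP2 stood at log2 fold changes of -0.05 ± 0.08, -0.02 ± 0.08 and -0.12 ± 0.08, and for each of them the libraries of the groups overlapped. RpL3, at the peptidyl transferase centre, had the highest CPM of the set, at 1270 ± 43.4 in controls and 1312 ± 42.0 in DHR39 (log2 fold change 0.05 ± 0.08). RpL4 was at 1086 ± 68.1 and 1099 ± 23.2 CPM and RpS3A, the only one of these genes on chromosome 4, at 1099 ± 85.5 and 1161 ± 127 CPM, and neither passed. The 4 other components examined, which include sta (the ribosomal protein of the small subunit also called the laminin receptor homologue) and the ribosome-bound scaffold Rack1, also had 0 calls (edgeR, with 1 at an unadjusted p under 0.05 and 0 called by DESeq2). Rack1 was at 946 ± 48.9 CPM in the controls and 833 ± 16.5 CPM in DHR39, a log2 fold change of -0.18 ± 0.08 (adjusted p = 0.143, edgeR), and its groups did not overlap. By chromosome arm, 1 of 18 genes was called on 2L (the arm of Hr39), 1 of 23 on 3R and 0 of 21, 14 and 14 on 2R, 3L and X. Of all tested genes, 23.6% passed on 2L, 20.8% on 2R, 14% on 3L, 15.4% on 3R and 12% on X.

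How much of each library these genes took was also close. They held 4.43% ± 0.19 of all counts in controls (SD, n = 5) and 4.84% ± 0.27 in DHR39 (SD, n = 3), with ranges of 4.30% to 4.76% and 4.56% to 5.11% that overlap. After TMM scaling, their summed level was 46029 ± 2317 CPM in the controls and 45458 ± 2144 CPM in DHR39. The share was the higher figure in DHR39 and the scaled sum the lower, so the direction of this small difference changes with the scale. With library totals alone, the median log2 fold change was 0.13 for these genes and 0.14 for all tested genes. On that scale 5 of the 91 were called higher and 0 lower, against 14.8% of all tested genes called higher. The 5 were RpL24-like, RpL22-like, RpLP0-like, RpL40 and RpS24, the last 2 of which are named because they were called there.

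Between genes, levels are compared per kilobase of annotated exon. Without minor copies, control means ran from 224 to 1962 CPM per kilobase, an 8.77-fold span (7.03-fold by the median length of each gene's transcripts), where most of the proteins are present once per ribosome. The highest were RpL41, a very short protein, at 1962 ± 249 CPM per kilobase, the stalk genes RpLP1 and RpLP2 at 1301 ± 43.5 and 1189 ± 85.8, and RpS27A, a fusion of ubiquitin with a small subunit protein, at 1134 ± 55.8. RpL27A followed at 1044 ± 73.1. RpL41 stood apart, and below it each neighbour in this order differed from the next by less than the sum of their SDs. The lowest were RpS21 at 224 ± 21.0, RpL38 at 256 ± 24.4 and, among abundant copies, RpS14a at 271 ± 18.9 CPM per kilobase. RpL28, at 293 ± 7.83 by all annotated exons, was at 620 by median transcript length, so its low place depends on the annotation. The order at both ends also changed by that measure. RpL22 was then lowest at 279, with RpS21 at 381, and RpS3A, at 1207, stood above RpLP2 and RpS27A. The levels repeated closely between control libraries, with a median coefficient of variation of 5.98% over these genes, against 9.36% over the 1130 tested genes with a mean control CPM at or above the lowest of them. RpL41 and RpL39 varied most among them, at 12.7% and 12.3%, and have short exons in all, 320 and 288 bases. RpL39 is named after its values were seen.

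RpL24-like was the one gene of the set that rose. It lies on 3R from 11430740 to 11431582 (minus strand, dm6) and is related to Rlp24 of yeast, which in that species occupies the site of the ribosomal protein L24 on precursors of the large subunit and leaves before they mature. Its levels were 83.6, 78.2, 81.8, 108 and 86.6 CPM in the controls and 121, 139 and 117 CPM in DHR39. Every DHR39 library lay above every control, and control replicate 4 was the highest control. The log2 fold change was 0.52 ± 0.11 (edgeR quasi-likelihood adjusted p = 0.00687), a 1.43-fold higher level with a 95% interval of 1.21 to 1.70. The call was made under all 16 alternatives, at log2 fold changes of 0.44 to 0.66 and adjusted p of 0.000478 to 0.0426 (edgeR, DESeq2 or limma). The authors' deposited table gives it 0.50, with an adjusted p of 0.00205 from DESeq2.

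Its abundant relative RpL24, the protein of the finished subunit, was at 461, 507, 460, 459 and 454 CPM in the controls and 460, 426 and 431 CPM in DHR39. It did not pass, at a log2 fold change of -0.09 ± 0.08 (adjusted p = 0.513, edgeR). Per kilobase, RpL24-like made up 23.5% ± 2.81 of the pair in controls (SD, n = 5) and 31.9% ± 2.58 in DHR39 (SD, n = 3). The highest control share was 27.9% and the lowest DHR39 share 30.0%, so the groups did not overlap on a measure that does not depend on the scaling between libraries. Exons of RpL24 share 273 bases with CG7099 on the opposite strand and those of RpL24-like 23 bases with Dtd, and the sources used here do not give the strand setting of the counting.

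RpL5 was the one gene of the set that fell, and its call depended on the scale and on single libraries. RpL5 binds a small rRNA of the large subunit together with RpL11 and brings it into the forming subunit. It lies on 2L from 22532279 to 22536884 (minus strand, dm6), 1273 kb from Hr39. Its levels were 1252, 1258, 1167, 1250 and 1216 CPM in the controls and 1067, 990.4 and 1047 CPM in DHR39. Every DHR39 library lay below every control, by a small step, for a log2 fold change of -0.25 ± 0.08 (adjusted p = 0.0429, edgeR). The level in DHR39 was 0.842 of that in controls, with a 95% interval of 0.751 to 0.945. The call ended with library totals alone (adjusted p = 0.360, edgeR), with the 50 most abundant genes taken out of the totals (0.200), with replicate names as a block (0.124) and on leaving out any one library except control replicate 3 (adjusted p up to 0.160). The authors' deposited table gives RpL5 a log2 fold change of -0.25, with an adjusted p of 0.000378.

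RpL11, named here because its protein acts with RpL5, was at 501 ± 30.1 CPM in the controls and 485 ± 19.0 CPM in DHR39, a log2 fold change of -0.05 ± 0.08 (adjusted p = 0.785, edgeR). RpL21, which lies on 2L closer to Hr39 than RpL5, at 987 kb, was at a log2 fold change of -0.06 ± 0.08 (adjusted p = 0.690, edgeR). Both of these neighbours, by function and by position, were uncalled. An effect of sequence linked to the mutation on RpL5 was not tested.

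**Figure D3:**
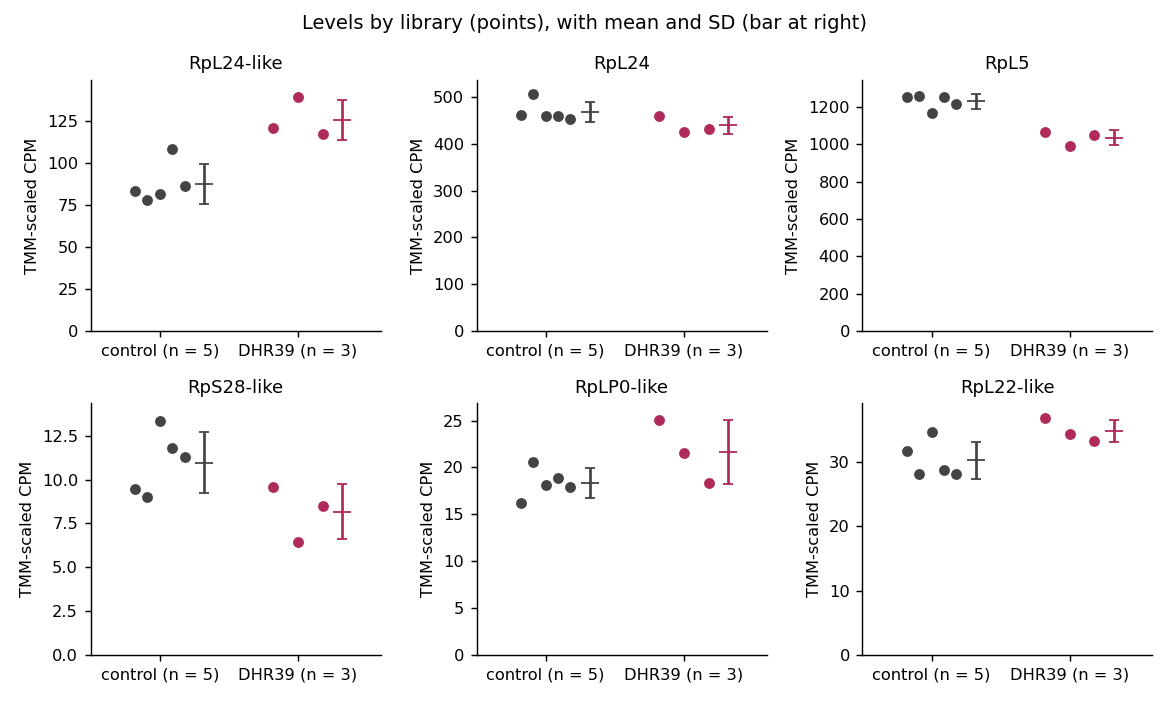
TMM-scaled CPM of 6 ribosomal protein genes in each library (points; 5 controls in grey, 3 DHR39 in red) with the mean and SD beside them, on axes from 0. For RpL24-like every DHR39 library is above 108 CPM, the highest control, for RpL5 every DHR39 library is below 1167 CPM, the lowest control, and in the other 4 genes the groups overlap.

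The duplicated families differed widely in how the copies shared expression. Control levels of minor copies ran from 1.93 to 87.7 CPM, against 237 to 890.5 CPM for the abundant copies. Per kilobase the ratio of abundant to minor copy ran from 2.28 in RpS14 to 76.8 for RpS28a. In RpS14 and RpL34 the copies were closest: RpS14b took 30.4% ± 1.50 of its pair in controls and 30.0% ± 0.77 in DHR39, and RpL34a took 27.7% ± 1.27 and 28.1% ± 0.058. RpL24-like, described above, was next, with a ratio of 3.26 in controls. RpL10Aa followed it, at 10.0% ± 1.42 of its pair in controls and 10.2% ± 0.689 in DHR39. Copies of a family resemble each other in sequence, so reads may be split between them and each division is uncertain.

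The other minor copies took smaller shares of their families, up to 9.44% in any library. RpL22-like, known from the male germline, took 8.09% ± 0.777 of its pair in controls and 9.00% ± 0.0878 in DHR39. RpS19b was at 6.99% ± 0.666 and 6.64% ± 0.628, and RpS15Ab at 6.71% ± 0.979 and 6.24% ± 0.445. RpL37b took 4.02% ± 0.632 and 3.72% ± 0.366 and RpS10a 3.54% ± 0.592 and 3.51% ± 0.813. In all 5 of these pairs the groups overlapped. In the RpS28 family, with 3 copies, RpS28-like took 5.79% ± 1.12 of the family in controls and 4.48% ± 0.674 in DHR39, and RpS28a 1.22% ± 0.398 and 1.33% ± 0.300, and both overlapped. Of the 13 minor copies, 2 had shares that lay higher in every DHR39 library than in every control, and 0 lay lower. The 2 were RpL24-like and, by a margin under the printed digits, RpLP0-like. No such count over other pairs of genes was made, so these numbers give no direction for minor copies as a class.

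**Figure D4:**
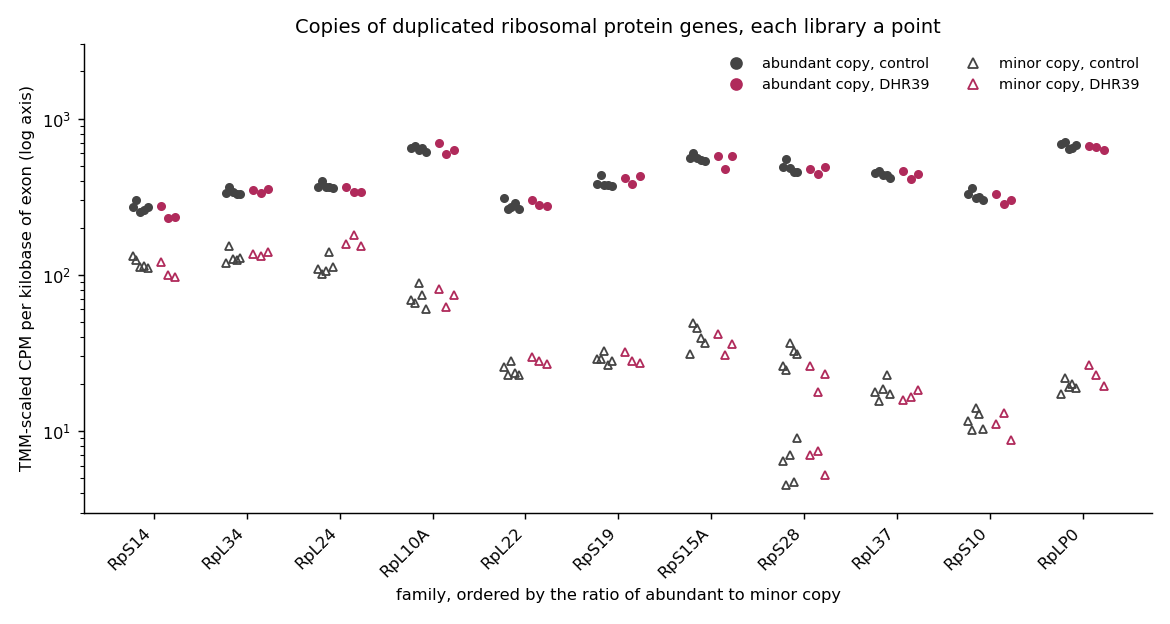
TMM-scaled CPM per kilobase of exon (log axis) of each copy in duplicated families, with filled circles for abundant and open triangles for minor copies, controls in grey and DHR39 in red, each point a library. The gap between copies runs from 2.28-fold in RpS14 to 76.8-fold for RpS28a, and among the minor copies only those of RpL24 are parted between the genotypes.

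RpLP0-like is related to Mrt4 of yeast, which in that species takes the place of the stalk protein P0 on precursors of the large subunit. It was at 16.2, 20.6, 18.1, 18.9 and 17.9 CPM in the controls and 25.1, 21.5 and 18.4 CPM in DHR39. DHR39 replicate 3 lay among the controls, and the gene did not pass, at a log2 fold change of 0.24 ± 0.12 (adjusted p = 0.218, edgeR, and 0.0455 to 0.609 over the alternatives). Its abundant relative RpLP0 was at 890.5 ± 41.8 CPM in the controls and 861 ± 29.9 CPM in DHR39. The share of RpLP0-like in the pair was 2.81% ± 0.240 in controls and 3.39% ± 0.401 in DHR39, with the highest control and the lowest DHR39 library both at 3.01%.

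RpS28-like, an uncharacterised relative of the small subunit protein RpS28, had the lowest log2 fold change of the set. It was at 9.46, 9.01, 13.3, 11.8 and 11.3 CPM in the controls and 9.56, 6.45 and 8.50 CPM in DHR39. The groups overlapped and it did not pass, at a log2 fold change of -0.43 ± 0.17 (adjusted p = 0.112, edgeR). With replicate names as a block it was called lower, at -0.58 (adjusted p = 0.0212, edgeR). CG3769, on the same strand, shares 39 bases of exon with it, which makes part of its reads uncertain. RpS28b, the abundant copy, was at 473 ± 37.6 CPM in the controls and 455 ± 23.4 CPM in DHR39.

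RpL22-like was at 31.6, 28.2, 34.7, 28.7 and 28.1 CPM in the controls and 36.7, 34.4 and 33.2 CPM in DHR39, a log2 fold change of 0.20 ± 0.10 (adjusted p = 0.208, edgeR). Control replicate 3 lay among the DHR39 libraries. In control replicate 3 the minor copies as a group stood high, at a median of 0.20 on the log2 scale over the control mean, and the male germline sum was also highest there, at 7725 CPM, and their relation was not tested. The least measured copy was RpS28a, at 1.93 ± 0.560 CPM in the controls and 2.00 ± 0.365 CPM in DHR39, with a 95% interval of the log2 fold change from -0.56 to 0.67.

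Many of the genes that build ribosomes rose. Of 40 tested genes of ribosome assembly and RNA polymerase I, 18 rose and 0 fell, and their median log2 fold change was 0.35, beside -0.0044 over all tested genes, of which 6.58% rose. Their summed level ran from 1375 to 1538 CPM in the controls and from 1737 to 1826 CPM in DHR39, without overlap, and 37 of 40 log2 fold changes were above 0. The largest single part of that sum was Non1, at 360 ± 54.9 CPM in the controls and 493 ± 3.04 CPM in DHR39 (SD). Non1 is named after its values were seen. The count of assembly genes that rose was 20 with replicate names as a block and 26 with library totals alone, where 14.8% of all tested genes rose. The count dropped to 8 without DHR39 replicate 2 and 9 without DHR39 replicate 3. RpL24-like and RpLP0-like, whose yeast relatives are assembly factors, are not in the list.

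The called assembly genes with the smallest p act at early and late steps. Nop56, a core protein of the particles that methylate rRNA, was at 21.1, 30.1, 21.4, 29.8 and 26.8 CPM in the controls and 41.9, 40.2 and 42.7 CPM in DHR39, and rose by 0.69 ± 0.13 (adjusted p = 0.00318, edgeR). Nop60B, the pseudouridine synthase of rRNA, rose by 0.60 ± 0.11, from 30.9 ± 4.10 to 46.7 ± 2.49 CPM. Both lay above every control in every DHR39 library. eIF6, which holds large subunits apart from small ones until they are mature, was at 31.7, 36.4, 37.1, 32.9 and 34.2 CPM in the controls and 48.2, 51.7 and 53.8 CPM in DHR39, and rose by 0.57 ± 0.09 (adjusted p = 0.000778, edgeR). Nmd3, the export adaptor of the large subunit, rose by 0.41 ± 0.09, from 39.4 ± 1.91 to 52.2 ± 3.57 CPM. These 4 were called under all 16 alternatives. The uncalled genes of highest level, Nop17l and Rrp6, stood at -0.12 ± 0.15 and 0.15 ± 0.11.

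The other lists are read against the shares over all tested genes, 6.58% higher and 10.7% lower. Of 43 initiation factors 3 rose and 2 fell, with a median log2 fold change of 0.039, so the number that rose was near that share. eIF6 is 1 of the 3. eIF2Bdelta, a subunit of the factor that recharges eIF2 with GTP, rose by 0.79 ± 0.10, from 22.8 ± 1.93 to 39.3 ± 2.21 CPM (adjusted p = 0.000126, edgeR), and was called under all alternatives. eIF4EHP, a cap-binding repressor, rose by 0.26 ± 0.08 (adjusted p = 0.0410, edgeR, and 0.0663 with the block), and lost the call on leaving out any library except control replicate 3. Of the genes that fell, eIF3j fell by 0.26 ± 0.07 (adjusted p = 0.0312, edgeR, and 0.294 with library totals alone), a call that ended without any DHR39 library and without control replicate 4 or 5. The scaffold eIF4G1, named as the other of the 2, fell by 0.29 ± 0.09 (adjusted p = 0.0456, edgeR, and 0.256 with library totals alone), and lost the call on leaving out DHR39 replicate 1 or 3 or any control but replicate 3. The abundant eIF4A and eIF4G2 stood at log2 fold changes of -0.005 ± 0.07 and -0.003 ± 0.11 and did not pass.

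Of 10 elongation and release factors 1 fell, eEFSec, which delivers selenocysteine, by 0.80 ± 0.19 (adjusted p = 0.0111, edgeR, and 0.0542 without DHR39 replicate 3). The main elongation factors eEF1alpha1 and eEF2 stood at -0.07 ± 0.08 and -0.14 ± 0.09 and did not pass. Of 72 mitochondrial ribosomal proteins, which are encoded by a separate set of nuclear genes, 1 rose and 0 fell, beside 6.58% and 10.7% of all tested genes, with a median of -0.027. There were 2 higher and 1 lower with the block and 1 higher and 1 lower with DESeq2, where the shares over all genes were not tallied. With library totals alone 3 were higher, beside 14.8% of all tested genes. That gene, mRpS6, rose by 1.63 ± 0.13, from 11.8, 15.5, 10.2, 11.2 and 11.9 CPM in the controls to 40.7, 35.2 and 37.3 CPM in DHR39 (adjusted p = 4.1e-06, edgeR). No DHR39 library lay near the controls, and mRpS6 was called under all alternatives. The mitochondrial genes mRpL28 and mRpS5 stood at 0.11 ± 0.09 and -0.18 ± 0.08 and did not pass, although for mRpS5 every DHR39 library lay below every control.

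**Figure D5:**
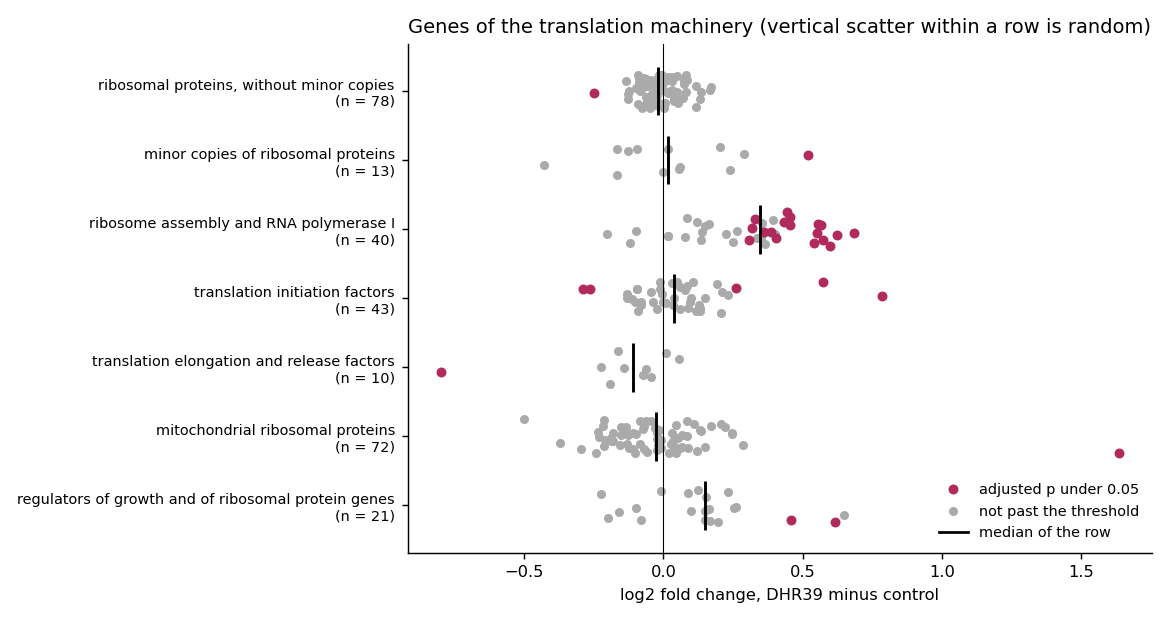
Log2 fold change (DHR39 minus control) of each gene in classes of the translation machinery, with genes past the adjusted p of 0.05 in red, the others in grey and the median of a row as a black bar. The assembly genes have a median of 0.35 with 18 of 40 in red, and the ribosomal proteins without minor copies a median of -0.020 with 1 of 78 in red.

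Regulators of growth and of ribosomal protein genes were examined last. Of 21 tested genes 2 rose and 0 fell, beside 6.58% and 10.7% of all tested genes, with a median log2 fold change of 0.15. Myc, a transcription factor that drives ribosome assembly genes in flies, was at 60.0, 54.1, 46.7, 63.1 and 68.8 CPM in the controls and 67.1, 87.4 and 114 CPM in DHR39. It rose by 0.61 ± 0.16 (adjusted p = 0.0214, edgeR), with DHR39 replicate 1 inside the control range, and the call ended without DHR39 replicate 3 (0.136) and without DHR39 replicate 2 (0.0555). Irbp18, the partner of Xrp1 in the response to loss of ribosomal proteins, rose by 0.46 ± 0.13, from 15.7 ± 2.23 to 21.6 ± 2.97 CPM (adjusted p = 0.0346, edgeR, with 0.00703 to 0.154 over the alternatives). Its call ended on leaving out DHR39 replicate 1 or 3 or control replicate 3, 4 or 5. Xrp1 itself, at 899 ± 98.2 and 1055 ± 103 CPM, did not pass at 0.23 ± 0.11 (adjusted p = 0.174, edgeR), but was called higher with the block (0.0474), with library totals alone (0.0151) and with the 50 most abundant genes taken out of the totals (0.0338). larp, which binds messages of ribosomal proteins, was at -0.22 ± 0.12 (adjusted p = 0.246, edgeR). Thor, a repressor of cap-dependent translation named after its values were seen, had the highest log2 fold change of the list, 0.65 ± 0.23 (adjusted p = 0.0808, edgeR). It was at 433, 155, 317, 350 and 336 CPM in the controls and 503, 515 and 480 CPM in DHR39, all above the controls, and was called higher with the block (0.00090) and with library totals alone (0.0278). With library totals alone 9 of the 21 rose, beside 14.8% of all tested genes. With the block 6 rose, and the share over all genes was not tallied there. Without DHR39 replicate 3 the count was 0, and the share over all genes was not tallied there either.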

How the data were processed

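Per the labels' protocols, stranded poly(A) libraries were read from both ends. The submitters' processing notes list STAR 2.6.1b, featureCounts 1.6.3, cutadapt 1.16 and DESeq2 (1.20.0, 1.22.2) and name BDGP6 and dm6 as builds, without settings. Analysis began from the deposited raw counts per gene. The deposited sample sheet gives the authors' size factors, a ratio per library, and replicate names. The authors' deposited table gives log2 fold changes and adjusted p-values, and calls 2825 genes, 2 of them ribosomal protein genes. It may rest in part on libraries not analysed here.

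Genes were kept by filterByExpr (13506 of 14865, 5 without counts), and scaled by TMM. The genotypes were compared by the two-sided quasi-likelihood test in edgeR 4.0.16 (R 4.3.3), with Benjamini-Hochberg adjustment over all tested genes and calls at an adjusted p under 0.05. CPM are counts over the product of tested total and TMM factor, given as mean ± SD. SEs of log2 fold changes were derived from F, as absolute value over its root. The biological coefficient of variation was 14.9%. Lengths, positions and overlaps came from Ensembl release 115 (BDGP6, dm6), matched for 90 of the 91 genes, with RpS12 unmatched. Of these genes, 9 share exon bases with a gene of their own strand and 25 with a gene of the opposite strand. RpL7-like was not analysed here, so RpL7 counts as single.

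Between replicates, chi-square per degree of freedom was 17.0 to 42.9, above sampling noise. Replicate names in the deposited sheet join each DHR39 library to 1 control, and deviations from the group means had correlations across genes of 0.215, 0.108 and 0.183 in the 3 pairs. All exceed 0.1, and the names were used as pairs in the block fit only. The main comparison fitted genotype without pairs. The highest value between other libraries was 0.101, close to the lowest of the pairs. In the block fit control replicates 1 and 2 add nothing to the contrast.

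The gene set, families and lists were chosen with earlier results of these data known, so list counts are descriptions and no list was tested. Genes named were Hr39, all duplicated copies, called genes, the 5 highest and 3 lowest per kilobase, the 3 uncalled genes of highest CPM, and from each list up to 4 called genes with the smallest p and up to 2 uncalled genes of highest CPM. Alternatives were library totals, DESeq2 size factors, TMM without these genes, totals without the 50 most abundant genes, no filter, DESeq2 1.42.0, limma 3.58.1 voom, the block and leaving out each library. The length measure was an alternative chosen after seeing the data. The fitting procedure was tested on simulated data. Python 3.11.15 was used for summaries. Sequences and start-site motifs were not analysed here. Some of the genes that this rule names are counted in the totals but not reported here by name.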

Additional observations from a re-analysis of the deposited data

Results flagged for a closer look

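Of 69 values checked over the 5 controls, 9 had a single library far from the other 4, where chance flags about 1 in 20. In 7 of the 9 that library was control replicate 2. It was highest for RpL24 at 507 CPM (the others between 454 and 461), RpL34a at 95.2 CPM (73.9 to 79.96), RpL34b at 337 CPM (305 to 313), RpS19a at 549 CPM (463 to 479), RpS21 at 219 CPM (173 to 184) and RpS27A at 730.0 CPM (652 to 662). It was also highest for the median log2 deviation of the 78 ribosomal protein genes without minor copies, at 0.12 against -0.044 to 0.00060. These genes share that library, so the flags are not separate events. Control replicate 4 was highest for RpL24-like, at 108 CPM against 78.2 to 86.6, and without it the log2 fold change of that gene was 0.61 in place of 0.52. Control replicate 3 was highest for the male germline gene S-Lap1, at 1943 CPM against 1467 to 1603.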

How the results depend on the processing

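The scale moved most values. With library totals alone, 5 ribosomal protein genes were called higher and 0 lower, 3 minor copies were called higher, and their median log2 fold change was 0.13. Without the 50 most abundant genes in the totals, 0 were called lower and the median was 0.081. With the replicate block, 1 minor copy was called lower, RpS28-like, and 1 gene of the set was called higher, RpL24-like; the blocked fit changed the calls of RpL5, RpS28-like, eIF4EHP, Xrp1, tud, sa and Thor, and of no other gene named in the results. Leaving out 1 library at a time gave 1 gene called higher in every case, 0 to 1 lower, and a median of -0.050 to 0.022. By median transcript length, the span of levels per kilobase was 7.03-fold. Over 67 named genes and 16 alternatives, 955 of 1072 values kept their direction and side of the threshold, 36 lost a call, 7 gained one, 74 of uncalled genes moved by more than the replicate spread and 0 reversed a call, and the causes were not tested. Each ribosomal protein gene held at least 279 counts over the libraries, and wide intervals limit what can be said of copies below 20 CPM.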
